A study of Homo sapiens with 3 samples.

Results

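Tight junctions seal the space between neighbouring epithelial cells. Claudins form the paired strands that cross both membranes, occludin and the adhesion molecule JAM-A sit beside them, and PDZ-domain scaffolds on the cytoplasmic face tie the strands to actin and to the polarity complexes. In the epidermis they lie in the granular layer, and mice without Cldn1 lose water through the skin. The 9 genes described here are 4 claudins (CLDN1, CLDN4, CLDN7 and CLDN12), the membrane proteins OCLN (occludin) and F11R (JAM-A), and the scaffolds TJP1 (ZO-1), TJP3 (ZO-3) and PATJ. They were chosen by symbol from the 58735 Ensembl genes of the count table, and all 9 were found. All 9 also reached 1 CPM (counts relative to a library's total) in 1 library or more, as did 14709 genes in all.

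The RNA came from HaCaT, a spontaneously immortalised line of human keratinocytes whose genotype the labels give as WT. The S1650b library came from cells given the particulate sample S1650b at 50 µg/mL, the CB library from cells given carbon black at 25 µg/mL, and the control library from cells given no particles. All were treated for 24 h in serum-free medium after growth in medium with serum. Each group holds 1 library, so no difference below has a replicate check, no P value is given, and the 95% intervals cover counting error only. PCR copies could not be told from separate molecules, so even those intervals may be too narrow. The libraries are bulk RNA, in which fewer expressing cells and less RNA per cell cannot be told apart. The doses of the 2 particles differ, so their values are given side by side without a comparison at matched dose. The series title names the epidermal barrier among its subjects, and tight junctions are a part of that barrier.

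Total counts were 20417744 in S1650b, 20946139 in CB and 20658247 in the control. All 8 keratinocyte markers examined reached 1 CPM in every library, with a summed level of 5998 CPM in S1650b, 12630 CPM in CB and 13694 CPM in the control. KRT5 and KRT14 carry most of that sum, and the markers did not move one way: in S1650b against control KRT5, KRT14 and KRT6A were lower (folds 0.317, 0.344 and 0.257), DSP and DSG3 higher (1.79 and 1.75) and the other 3 neither, with a median log2 fold of −0.06. Of 6 fibroblast markers 3 reached 1 CPM, with a summed level of 12.9 CPM in S1650b, 30.3 CPM in CB and 93.2 CPM in the control, while COL1A2 and PDGFRA had 0 counts in the control. These 3 did not move alike: DCN and COL3A1 were lower in S1650b (folds 0.0338 and 0.115) and in CB (0.140 and 0.520). COL1A1 was neither higher nor lower (1.14 in S1650b and 0.864 in CB). Of the 6 endothelial markers 2 reached 1 CPM (one of the 6, CLDN5, is also in the claudin list below; summed level 44.1 CPM in S1650b, 27.8 CPM in CB and 54.8 CPM in the control), and KDR had 0 counts in all libraries. Melanocyte markers summed to 8.21 to 9.76 CPM, with TYR and DCT at 0 counts throughout, and leukocyte markers to 1.21 to 1.93 CPM. The part of these marker levels in the junction results was not tested. In the S1650b library folds against the control also moved with the length of a gene and its GC content. When all genes were split into eighths by length, the median log2 fold was −0.29 for the shortest and 0.48 for the longest. When split by GC, it was 0.60 for the poorest and −0.43 for the richest. In CB these medians were −0.10 to 0.01 for length and 0.05 to −0.08 for GC. Folds with both trends removed are therefore given beside many of the S1650b values.

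CLDN1 and CLDN7 were by far the most abundant of the 9 messages. FPKM, a level per length of exon, was 203 for CLDN1 in S1650b, 193 in CB and 344 in the control, which put CLDN1 at percentile 98.5 to 99.2 of the genes measured. CLDN7 had an FPKM of 90.8 in S1650b, 135 in CB and 141 in the control. CLDN4 followed at 28.6, 27.5 and 23.8 FPKM in S1650b, CB and the control, and F11R at 29.7, 25.0 and 33.4 FPKM in the same order. In S1650b the counting intervals of CLDN4 and F11R overlapped, so their order was not resolved there. TJP1 stood above TJP3 in S1650b (11.8 against 5.59 FPKM) and in CB (5.09 against 3.25), and below it in the control (3.67 against 11.9). OCLN was lowest in every library, at 3.18 FPKM in S1650b, 2.41 in CB and 2.31 in the control, and its interval overlapped that of PATJ in CB and in the control.

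**Figure D1:**
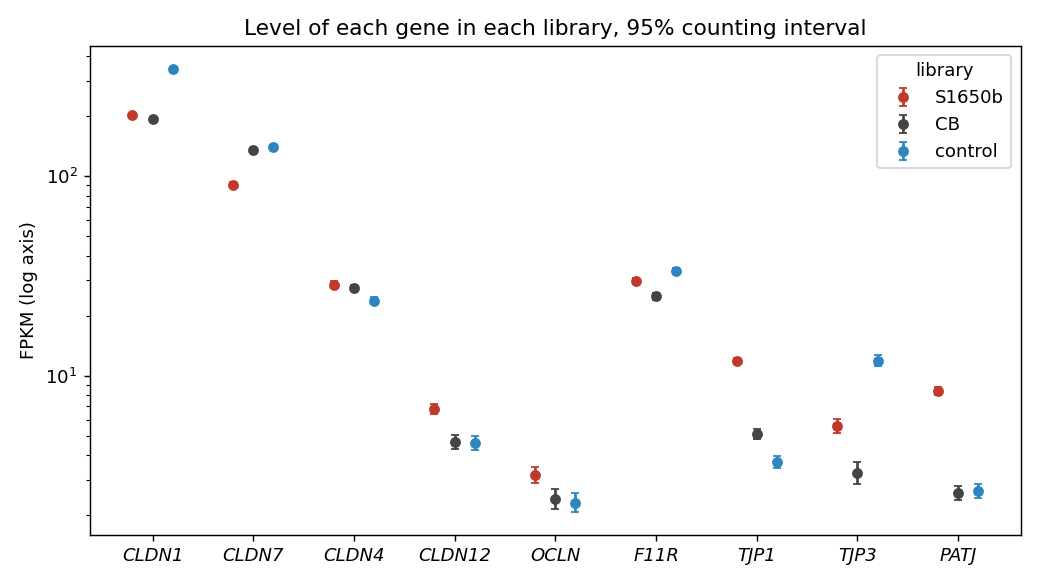
FPKM of each gene (log axis) in the S1650b, CB and control libraries, with 95% counting intervals. CLDN1 is highest in the control (344) and near 200 in both treated libraries, and TJP3 is highest in the control (11.9), whereas TJP1 and PATJ are highest in S1650b (11.8 and 8.36).

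Below, higher and lower mean that the fold, a ratio of TMM-scaled CPM, was 1.5 or more in that direction with its interval on the same side of 1. In S1650b against control, 2 of the 9 genes were higher (TJP1 and PATJ), 3 were lower (CLDN1, CLDN7 and TJP3) and 4 neither. Over all 14709 genes 22.0% were higher and 19.4% lower by the same rule, 41.4% in all. In CB against control, 2 were lower (CLDN1 and TJP3) and none higher, against 10.7% lower and 4.70% higher over all genes, 15.4% in all. In S1650b against CB, 4 were higher (TJP1, PATJ, TJP3 and CLDN12) and none lower, against 26.3% higher and 20.6% lower over all genes, 46.9% in all. With scaling by total counts, 4 of the 9 were higher and 1 lower in S1650b against control, beside 4289 and 1737 of all 14709 genes. In S1650b against CB 5 were higher and 0 lower at that scaling, beside 4880 and 2054 of all genes. The median log2 fold of the 9 genes was 0.27 in S1650b against control, −0.10 in CB against control and 0.47 in S1650b against CB, beside −0.04, −0.01 and 0.02 over all genes. With the trends of length and GC removed the first of these medians was −0.11 and the last 0.29. These counts do not set the 9 genes apart from other genes, and the values of single genes carry the description. Both treated libraries were set against the same control library, so the 2 comparisons with it are not independent.

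**Figure D2:**
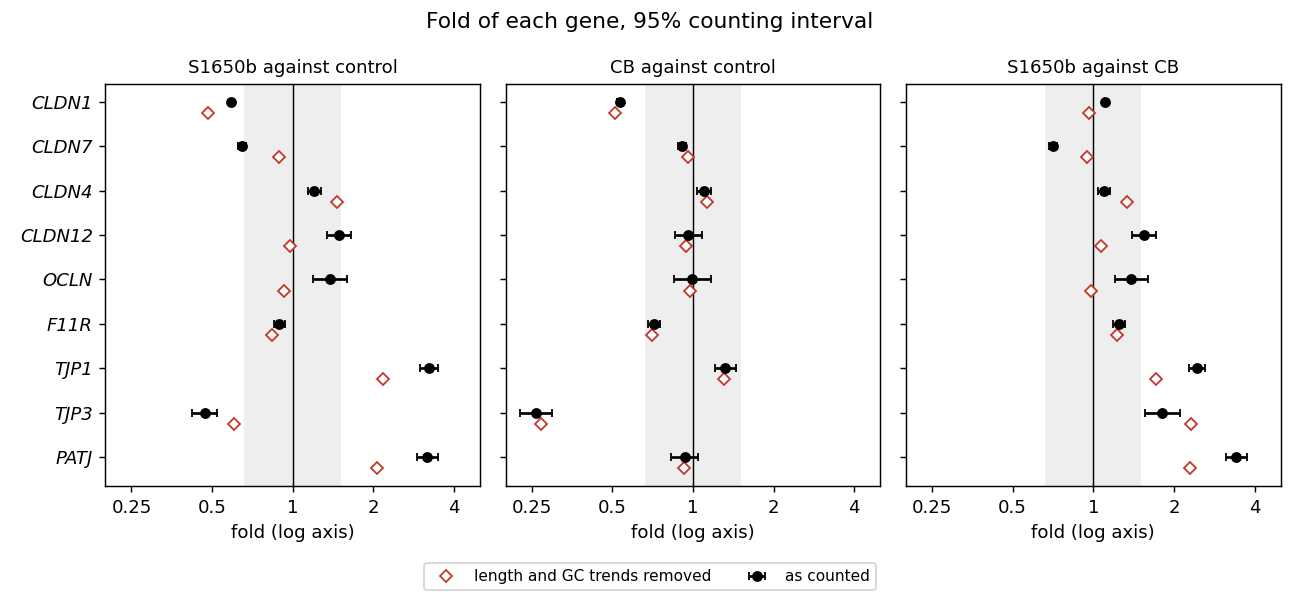
Fold of each gene (log axis) in the 3 comparisons, with 95% counting intervals as black points and folds after removal of the length and GC trends as open diamonds. The grey band spans folds under 1.5 in either direction. CLDN1 and TJP3 lie left of the band in both comparisons with the control, and TJP1 and PATJ lie right of it in both S1650b comparisons.

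Among the claudins, CLDN1, the main barrier-forming claudin of the epidermis (ENSG00000163347, chromosome 3, 190305701 to 190322475, GRCh38), was lower in both treated libraries. It had 16766 counts in S1650b, 13600 in CB and 24985 in the control. Against the control it was 1.69-fold lower in S1650b (1.66 to 1.73) and 1.88-fold lower in CB (1.84 to 1.92). With both trends removed the fall was 2.07-fold in S1650b and 1.95-fold in CB, while scaling by total counts gave a fold of 0.679 in S1650b, just short of the size rule. The treated libraries differed little from each other, with an S1650b to CB fold of 1.11 (1.08 to 1.13) that turned to 0.960 with the trends removed. CLDN1 has no exon shared with another annotated gene.

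CLDN7, a claudin of simple and stratified epithelia that binds EpCAM (chromosome 17, 7259903 to 7263983), was lower in S1650b and within the limit in CB. It had 5100 counts in S1650b, 6479 in CB and 6947 in the control. The fold against control was 1.55-fold lower in S1650b (1.49 to 1.60) and 0.913 in CB (0.882 to 0.944). The S1650b to CB fold was 0.708 (0.683 to 0.735), a difference within the 1.5-fold limit. CLDN7 is short and rich in GC (2492 exon bases, 59.6% GC), and genes like it had a trend of −0.46 on the log2 scale in S1650b against control. With that trend removed CLDN7 no longer met the rule in S1650b (fold 0.891). Exons of other genes overlap 12.3% of CLDN7.

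CLDN4, a claudin that limits passage of ions (chromosome 7, 73799542 to 73832693), differed by less than 1.5-fold in every comparison. It had 3032 counts in S1650b, 2490 in CB and 2216 in the control, so that both treated libraries were above the control. The folds against control were 1.20 in S1650b (1.14 to 1.27) and 1.10 in CB (1.04 to 1.16). With the trends removed the S1650b fold was 1.46.

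CLDN12, a claudin that lacks the usual PDZ-binding end (chromosome 7, 90383721 to 90513402), had 1034 counts in S1650b, 600 in CB and 611 in the control. It was 1.55-fold higher in S1650b than in CB (1.40 to 1.72), and its fold against control was 1.49 in S1650b (1.35 to 1.65) and 0.961 in CB (0.857 to 1.08). CLDN12 is poor in GC (38.1%), and with the trends removed its folds in S1650b were 1.07 against CB and 0.976 against control. Exons of other genes overlap 16.3% of it.

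Taken as ratios inside a library, which do not depend on how libraries are scaled, CLDN1 was lower relative to CLDN4 in both treated libraries. There were 5.53 CLDN1 counts per CLDN4 count in S1650b, 5.46 in CB and 11.3 in the control. The ratio was 2.04-fold lower in S1650b than in the control (1.92 to 2.16) and 2.06-fold lower in CB (1.94 to 2.20). With the trends removed it was 0.331 of the control in S1650b and 0.455 in CB, so the near-equal fall was not kept. The ratio of CLDN1 to CLDN7 was 3.29 in S1650b, 2.10 in CB and 3.60 in the control, so it was 1.71-fold lower in CB (1.65 to 1.78) and close to the control in S1650b, at 0.914 of it (0.877 to 0.953). With the trends removed the S1650b ratio of CLDN1 to CLDN7 was 0.543 of the control. The ratio of CLDN1 to CLDN12 was 16.2 in S1650b, 22.7 in CB and 40.9 in the control, 2.52-fold lower in S1650b (2.28 to 2.80) and 1.80-fold lower in CB (1.61 to 2.03). With the trends removed that ratio was 0.496 of the control in S1650b and 0.546 in CB. CLDN1 made up 61.7% of the summed FPKM of the 4 claudins in S1650b, 53.6% in CB and 67.1% in the control. The share of CLDN7 was 27.6% in S1650b, 37.5% in CB and 27.4% in the control, and that of CLDN4 was 8.69%, 7.64% and 4.63% in the same order. The summed FPKM of the 4 claudins was 329 in S1650b, 360 in CB and 513 in the control.

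**Figure D3:**
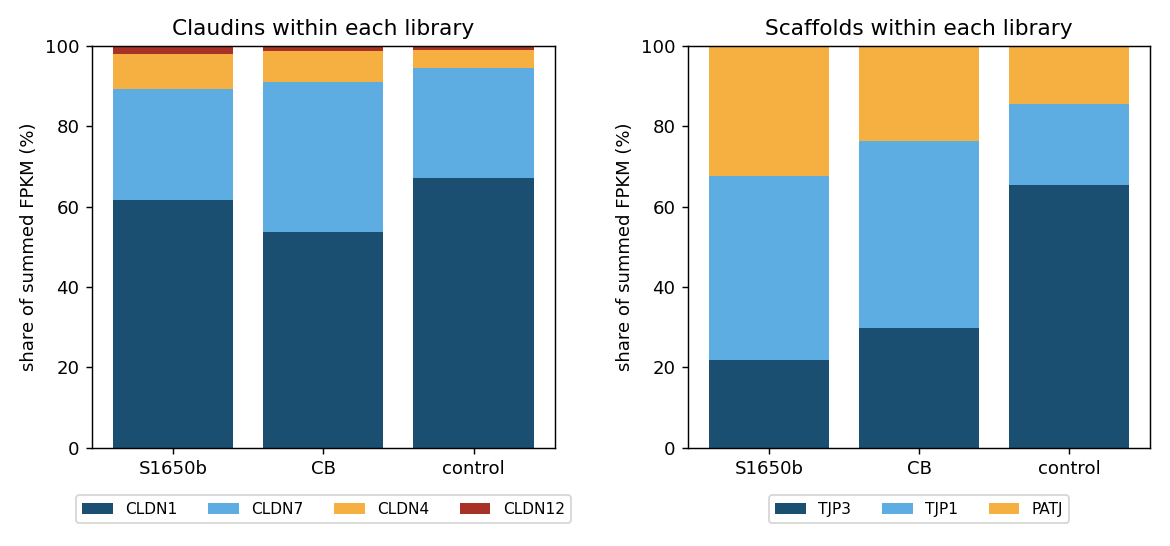
Share of each gene in the summed FPKM of the 4 claudins (left) and of the 3 scaffolds (right) within the S1650b, CB and control libraries. CLDN1 holds the most claudin signal in each library and most of all in the control (67.1%), and TJP3 holds 65.3% of the scaffold signal in the control but 21.7% in S1650b and 29.8% in CB.

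Of the other membrane proteins, OCLN, which lines tight junction strands and steers their turnover (chromosome 5, 69492292 to 69558104), showed no change past the rule. It had 484 counts in S1650b, 314 in CB and 309 in the control, with folds against control of 1.38 in S1650b (1.19 to 1.60) and 0.994 in CB (0.847 to 1.17). OCLN is also poor in GC (39.9%), and with the trends removed its S1650b fold was 0.930, whereas scaling by total counts gave 1.58. The pseudogene OCLNP1 copies part of OCLN and had 7 counts in S1650b, 0 in CB and 0 in the control, so reads from the copied exons are uncertain.

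F11R, an immunoglobulin-type adhesion molecule that helps to place polarity proteins at new junctions (chromosome 1, 160995211 to 161021348), was lowest in CB. It had 3393 counts in S1650b, 2443 in CB and 3351 in the control, so S1650b and the control lay close together in raw counts. The folds against control were 0.892 in S1650b (0.850 to 0.936) and 1.40-fold lower in CB (1.33 to 1.48), both inside the 1.5-fold limit. The S1650b value turned to 1.02 with scaling by total counts. Another annotated gene on the same strand, AL591806.3, overlaps 36.6% of the F11R exons and had 2 counts in S1650b, 6 in CB and 7 in the control. The count ratio of OCLN to F11R was 0.143 in S1650b, 0.129 in CB and 0.0922 in the control, higher by 1.55-fold in S1650b (1.33 to 1.80) and by 1.39-fold in CB (1.18 to 1.65). With the trends removed the S1650b value was 1.11-fold.

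The scaffolds showed the widest differences in the 2 S1650b comparisons, while in CB against control TJP3 alone of them passed the 1.5-fold rule. TJP3, a member of the ZO family found in epithelia (ENSG00000105289, chromosome 19, 3708109 to 3750813), had 531 counts in S1650b, 264 in CB and 994 in the control. The treated libraries were both below the control, with CB the lowest. TJP3 was 2.13-fold lower in S1650b than in the control (1.91 to 2.37) and 3.85-fold lower in CB (3.36 to 4.42). With the trends removed the fall was 1.66-fold in S1650b and 3.70-fold in CB. Against CB, TJP3 was 1.81-fold higher in S1650b (1.56 to 2.11).

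TJP1, the founding ZO scaffold that binds claudins, occludin and actin (ENSG00000104067, chromosome 15, 29699367 to 29968865), went the other way. It had 2998 counts in S1650b, 1105 in CB and 820 in the control. The fold was 3.22 in S1650b against control (2.98 to 3.48), 1.32 in CB against control (1.20 to 1.45) and 2.44 in S1650b against CB (2.28 to 2.62). TJP1 is among the longer genes (11265 exon bases), and with the trends of length and GC removed the S1650b folds were 2.18 against control and 1.72 against CB.

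PATJ, a multi-PDZ scaffold that joins the Crumbs polarity complex to the tight junction (ENSG00000132849, chromosome 1, 61742406 to 62178675), was higher in S1650b and close to the control in CB. It had 2261 counts in S1650b, 595 in CB and 626 in the control. The fold was 3.18 in S1650b against control (2.91 to 3.48), 0.930 in CB against control (0.830 to 1.04) and 3.42 in S1650b against CB (3.12 to 3.75). PATJ is as long as TJP1 (11990 exon bases), and with the trends removed the S1650b folds were 2.06 against control and 2.30 against CB.

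Inside each library the balance of scaffolds differed between the treated libraries and the control. There were 0.177 TJP3 counts per TJP1 count in S1650b, 0.239 in CB and 1.21 in the control. The ratio was 6.84-fold lower in S1650b (5.99 to 7.82) and in CB it was 0.197 of the control (0.167 to 0.233). With both trends removed it was 0.276 of the control in S1650b and 0.206 in CB. Per length of exon, TJP3 gave 21.7% of the summed FPKM of the 3 scaffolds in S1650b, 29.8% in CB and 65.3% in the control, and TJP1 gave 45.8%, 46.6% and 20.2% in the same order. The ratio of PATJ to TJP1 was 0.754 in S1650b, 0.539 in CB and 0.763 in the control. In S1650b it was 0.988 of the control (0.877 to 1.11), and in CB it was 1.42-fold lower (1.22 to 1.64). Of the 18 ratios computed (6 gene pairs in 3 comparisons), 9 differed by at least 1.5-fold. This count was 7 with the length trend removed and 8 with both trends removed. The 3 comparisons of a pair share libraries, so the 18 ratios are not independent. The share among other gene pairs was not computed, so the count does not set these pairs apart.

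Promoter sequence is shown for CLDN1 and TJP3, which were lower in both treated libraries, and for PATJ, which was higher in S1650b and has a single RefSeq window. TJP1, with the highest S1650b fold of the 9 genes, has 4 windows, which are not printed. The windows are the 250 bases before a RefSeq start (GRCh38.p14), written 5′ to 3′ on the gene's strand. Capitals mark matches, on either strand, to the core of the aryl hydrocarbon receptor element (GCGTG), the E-box bound by SNAI factors (CAGGTG), the GC box (GGGCGG) and the AP-1 element (TGANTCA). Different motifs can share at most 2 end bases. TJP3 has a pair of annotated starts, and the counts do not tell which was used.
CLDN1 promoter at chr3:190322447-190322696, minus strand: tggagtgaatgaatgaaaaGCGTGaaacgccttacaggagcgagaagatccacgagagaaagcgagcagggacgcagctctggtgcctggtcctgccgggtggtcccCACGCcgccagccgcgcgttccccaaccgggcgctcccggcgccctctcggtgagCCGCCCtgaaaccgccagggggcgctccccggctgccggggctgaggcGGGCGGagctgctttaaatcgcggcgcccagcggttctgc
TJP3 promoter at chr19:3708134-3708383, plus strand: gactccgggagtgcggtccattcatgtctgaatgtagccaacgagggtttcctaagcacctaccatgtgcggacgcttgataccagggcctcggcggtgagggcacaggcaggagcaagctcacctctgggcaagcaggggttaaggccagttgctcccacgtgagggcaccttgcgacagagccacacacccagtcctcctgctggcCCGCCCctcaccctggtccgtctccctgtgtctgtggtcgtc
TJP3 promoter at chr19:3721487-3721736, plus strand: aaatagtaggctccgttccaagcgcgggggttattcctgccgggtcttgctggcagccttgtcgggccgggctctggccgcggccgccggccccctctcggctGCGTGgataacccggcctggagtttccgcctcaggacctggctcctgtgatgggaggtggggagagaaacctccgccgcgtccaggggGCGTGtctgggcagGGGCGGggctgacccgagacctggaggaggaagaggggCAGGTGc
PATJ promoter at chr1:61742230-61742479, plus strand: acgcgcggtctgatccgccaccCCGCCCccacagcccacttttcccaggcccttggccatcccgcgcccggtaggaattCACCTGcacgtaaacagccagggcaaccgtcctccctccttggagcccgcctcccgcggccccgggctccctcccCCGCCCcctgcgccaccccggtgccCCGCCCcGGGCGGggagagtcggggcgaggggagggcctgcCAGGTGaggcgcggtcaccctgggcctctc

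The CLDN1 window held 2 matches to GCGTG and 2 GC boxes. The upstream TJP3 window held 1 GC box, and the downstream window 2 matches to GCGTG, 1 E-box and 1 GC box. The PATJ window held 2 E-boxes and 4 GC boxes. Over the 35116 RefSeq windows of this length, 32.2% held GCGTG, 17.5% the E-box, 42.6% the GC box and 6.57% the AP-1 element, so the first 3 of these are common letters in promoters. RefSeq windows were matched for 8 of the 9 genes, 14 windows in all. The second CLDN7 window held 4 E-boxes, the CLDN4 window 2 AP-1 elements, and the CLDN12 window no match to any of the 4 motifs. A match describes the letters and is not a binding site.

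The other genes of the junction were examined with a list of 54, of which 35 reached 1 CPM. In S1650b against control 10 of the 35 were higher and 2 lower (median log2 fold 0.02), beside 22.0% higher and 19.4% lower over all genes. In CB against control 1 was higher and 7 lower (median −0.01), beside 4.70% and 10.7% over all genes. With the length and GC trends removed the S1650b against control count was 4 higher and 6 lower, beside 2105 and 2605 of all 14709 genes. With the length trend alone removed it was 5 and 8, beside 2727 and 2998 of all genes. In both settings the list no longer held more higher than lower genes. In S1650b against CB 12 were higher and 3 lower (median 0.30), beside 26.3% and 20.6% over all genes. There the counts were 7 higher and 3 lower with both trends removed, beside 3096 and 2820 of all genes. With scaling by total counts they were 17 and 3, beside 4880 and 2054 of all genes.

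Among other claudins 4 of 18 reached 1 CPM, and their levels were far under those of CLDN1. CLDN16 had 139 counts in S1650b, 71 in CB and 160 in the control, and was 2.30-fold lower in CB than in the control (1.73 to 3.09). CLDN15, a channel-forming claudin of the gut, had 223, 138 and 246 counts in the same order and was 1.82-fold lower in CB (1.47 to 2.26). CLDN9 had 116 counts in S1650b, 18 in CB and 39 in the control, which gave a fold of 2.62 in S1650b (1.81 to 3.87; 3.63 with the trends removed) and a 2.21-fold lower level in CB (1.24 to 4.11). CLDN23 was 2.10-fold higher in CB on 30 counts against 14 (1.08 to 4.28). CLDN17 and CLDN25, whose exons no other gene overlaps, had 0 counts in all libraries, which allows a level of up to 0.134 CPM in S1650b, 0.149 CPM in CB and 0.153 CPM in the control, for counting error only. CLDN10 and CLDN22 also had 0 counts, but other genes on the opposite strand overlap 46.1% and 100% of their exon bases, so that no limit is given for them.

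Of 10 other membrane proteins 7 reached 1 CPM. Against the control 1 of the 7 was higher and 0 lower in S1650b, and 0 higher and 2 lower in CB. Over all genes 22.0% were higher and 19.4% lower in S1650b, and 4.70% and 10.7% in CB. In S1650b against control CXADR, the coxsackievirus and adenovirus receptor that sits at junctions, was 1.81-fold higher (1.56 to 2.11), on 541 counts against 263, and none was lower. Its fold was 1.22 with the trends removed. In CB against control ILDR1, an angulin of tricellular contacts, was 2.69-fold lower (1.31 to 5.98) on 11 counts against 29, and TMEM47 1.57-fold lower (1.14 to 2.18).

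Plaque and polarity genes were 24 of 26 measured, with 8 higher and 2 lower in S1650b and none higher and 2 lower in CB, against the control, beside 22.0% higher and 19.4% lower in S1650b and 4.70% and 10.7% in CB over all genes. PALS1, the Crumbs complex partner of PATJ, was 2.05-fold higher in S1650b (1.86 to 2.27), PRKCI, the atypical kinase of the PAR complex, 1.80-fold (1.68 to 1.92) and USP53, a ZO-binding protein, 2.65-fold (2.22 to 3.18). With the trends removed these folds were 1.27, 1.24 and 1.41. MICALL2, which guides occludin back to the membrane, was 1.84-fold higher (1.63 to 2.08) and 1.91-fold with the trends removed. PARD6A was 2.24-fold lower in S1650b (1.61-fold with the trends removed) and SYMPK, a plaque and RNA-processing protein, 1.53-fold lower. In CB, AMOT, an angiomotin that binds PATJ, was 1.97-fold lower and CGN, cingulin, 1.61-fold lower (1.44 to 1.80). CGN in S1650b had a fold of 0.671 (0.603 to 0.746), and 0.742 with the trends removed.

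Partners and surface proteases of claudins were mostly within the limit, with 0 of 6 higher and 1 lower in S1650b, and 0 higher and 2 lower in CB, against the control, where 41.4% and 15.4% of all genes were past the limit in either direction. PRSS8, the membrane protease prostasin, was 1.65-fold lower in CB and just past the limit in S1650b (fold 0.667, 0.618 to 0.719), where its fold with the trends removed was 0.914.

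Of 14 transcription factors tied to claudin or occludin genes 9 were measured, with 2 higher and 4 lower in S1650b and 0 higher and 2 lower in CB, against the control, beside the same shares over all genes, 22.0% higher and 19.4% lower in S1650b and 4.70% and 10.7% in CB. ELF3, an epithelial ETS factor, had 3373 counts in S1650b, 2134 in CB and 6352 in the control, and was 2.14-fold lower in S1650b (2.05 to 2.23) and 3.04-fold lower in CB (2.90 to 3.20). GRHL3, a grainyhead factor of epidermal barrier formation, had 76, 109 and 211 counts in the same order and was 3.15-fold lower in S1650b (2.41 to 4.15) and 1.98-fold lower in CB (1.56 to 2.52). With the trends removed the S1650b falls of ELF3 and GRHL3 were 1.99-fold and 2.72-fold. OVOL2 and KLF4 were 1.89-fold and 1.68-fold lower in S1650b, and their folds with the trends removed were 0.719 and 0.744. SNAI2, a repressor of epithelial junction genes, was 1.59-fold higher in S1650b (1.47 to 1.71) and GRHL1 1.73-fold higher, with folds of 1.32 and 1.19 with the trends removed. The SNAI2 fold in CB was of like size, 1.48 (1.37 to 1.60), just short of the rule, and 1.42 with the trends removed. That of GRHL1 in CB was 0.691 (0.488 to 0.973). SNAI1, ZEB1, ZEB2 and TWIST1, other repressors of junction genes, stayed under 1 CPM.

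**Figure D4:**
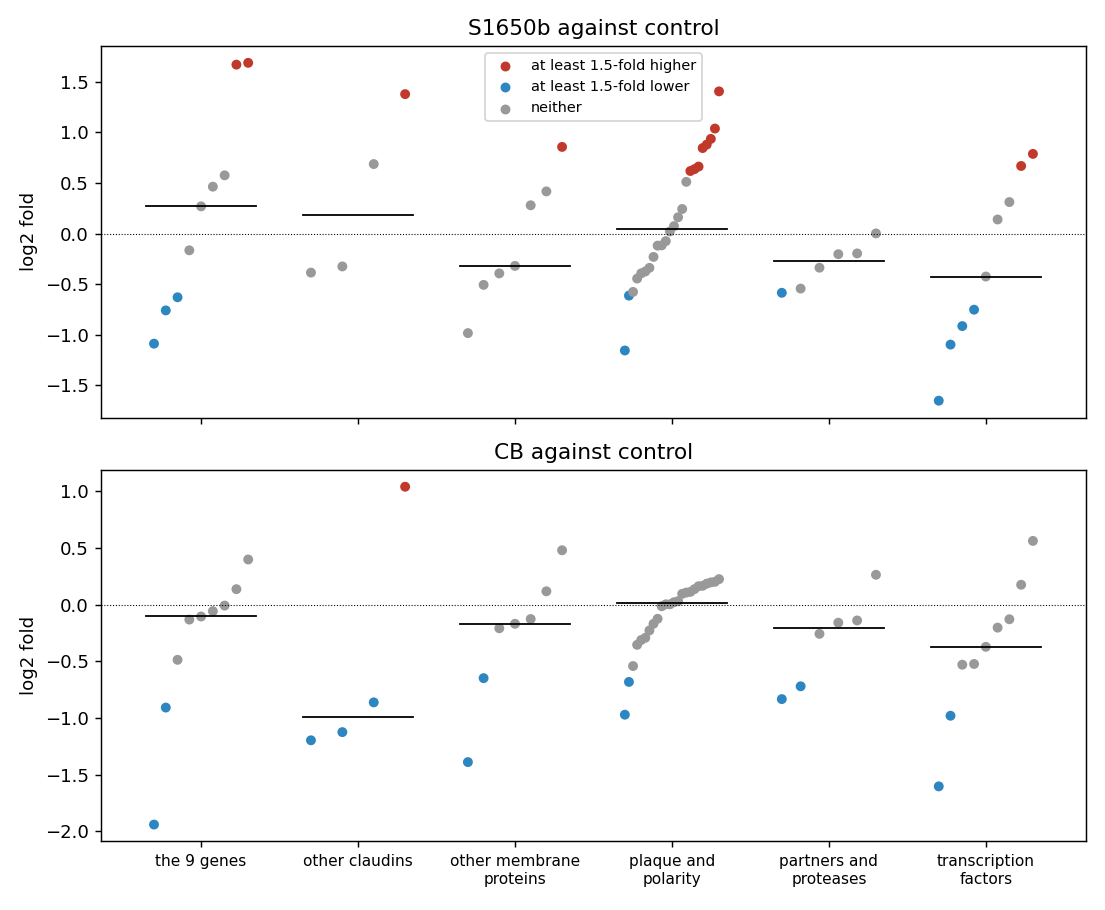
Log2 fold of each measured gene of the 9 and of the other junction lists, in S1650b against control (top) and CB against control (bottom). Points are genes and the bars are list medians. Of the 24 plaque and polarity genes measured 8 lie at least 1.5-fold higher in S1650b and none in CB, beside 22.0% and 4.70% of all genes. The length and GC trends are not removed here.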

How the data were processed

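Libraries were made from total RNA with a NEBNext Ultra kit, per the labels. The deposited count table holds whole-number counts per Ensembl gene. A second deposited table gives FPKM. CASAVA 1.7 and the builds mm8 and mm9 appear in the submitters' processing notes; those builds are of mouse, whereas the identifiers are human. Aligner, counter and use of strand: not given in the sources used here. Overlapping and antisense genes are therefore uncertain. All 58735 identifiers occur in GENCODE 29. For all 10171 genes with at least 100 counts per library, the gene length implied by counts and FPKM equalled the joined GENCODE 29 exons up to 1 constant (tolerance 0.1%), so these exon lengths include rarely used exons and can understate a level. GRCh38 positions, lengths and GC (longest transcript, known for 14703 of the 14709 genes) came from GENCODE 29.

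Counts were scaled by TMM (edgeR 4.0.16, R 4.3.3; factors 1.09 in S1650b, 0.960 in CB and 0.952 in the control), and genes with 1 CPM in at least 1 library were kept. This filter used CPM before scaling, while summed marker levels and limits for 0 counts used CPM after scaling. Folds have exact 95% conditional binomial intervals, and FPKM has exact Poisson ones. Ratios of gene pairs have exact conditional odds ratio intervals. A count of 0 was set to 3, and 0.5 was added before log2. Trends were removed with lowess (span 30%). With 1 library per group the quasi-likelihood test could not be run. The code was tested on simulated data. Alternatives were total count, DESeq2 1.42.0 and upper quartile scaling, FPKM with 0.1 added, no filter or 5 CPM, a 2-fold rule and trend removal; shares by longest transcript length were added after seeing the data. Other junction genes are named when among the 4 highest or lowest of their list by the interval end nearest to 1 (CLDN10, CLDN17, CLDN22, CLDN25, the repressors under 1 CPM, and values of a named gene in the other treated library are exceptions, picked with their values in view). A gene that this rule picks is not reported here. The 9 genes and the lists were chosen with earlier results of these data known. Intervals were computed in Python 3.11.15 with scipy 1.17.1 and numpy 2.4.6, trends with statsmodels 0.14.6, tables with pandas 2.3.3 and plots with matplotlib 3.10.9.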

Additional observations from a re-analysis of the deposited data

Results flagged for a closer look

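CLDN9, a claudin of low level in these cells, was the only gene of the junction lists at least 1.5-fold higher than the control in 1 treated library and at least 1.5-fold lower in the other. It had 116 counts in S1650b, 18 in CB and 39 in the control, and its S1650b to CB fold was 5.80 (3.51 to 10.1), and 7.79 with the length and GC trends removed. The difference was not tested, since each group holds 1 library.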

How the results depend on the processing

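No paired analysis was possible because each group holds 1 library, and for the same reason no replicate could be left out. Under 6 alternatives in scaling, unit and trend removal, none of the folds of the 9 genes that met the 1.5-fold rule changed direction, and 22 to 26 of 27 stayed on their side of it. The exceptions were CLDN1, CLDN7, CLDN12 and OCLN in the S1650b comparisons. CLDN1 in S1650b against control fell inside the limit with total count scaling (0.679). CLDN7 in S1650b against control fell inside the limit with total count scaling (fold 0.743), upper quartile scaling (0.674), the length trend removed (0.747) and both trends removed (0.891). CLDN12 in S1650b against CB fell inside it with FPKM (1.46), the length trend removed (1.38) and both trends removed (1.07), and against control it passed with total counts (1.71), median of ratios (1.52) and upper quartile (1.55). OCLN passed with total counts at 1.58 against control and 1.58 against CB. Scaling by total counts moved the median of all genes by 0.20 on the log2 scale in S1650b against control and by 0.19 against CB, and the S1650b against control split of all genes became 4289 higher and 1737 lower, beside 3236 and 2855, that of the 9 genes 4 and 1, beside 2 and 3. In S1650b against CB it became 4880 and 2054, beside 3870 and 3024, and with FPKM the CB against control split was 790 and 1012, beside 691 and 1568. With both trends removed the S1650b against control split of all genes was 2105 and 2605. With a 2-fold rule the genes past the limit numbered 1 of 9 in CB against control, 3 in S1650b against control and 2 in S1650b against CB; 4 of 35 other junction genes in each comparison; and 1071, 2943 and 3760 of all genes in the same order. With a 5 CPM filter 1281 of 11368 genes passed in CB against control, beside 2259 of 14709. With FPKM 5 other junction genes passed in CB against control, beside 8. By longest transcript, TJP3 held 19.9% of the scaffold signal in S1650b, 27.6% in CB and 62.9% in the control. Depth limits ILDR1, CLDN9 and CLDN23 most, on 11 to 39 counts in some libraries.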

Other observations

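The genes whose levels over the 3 libraries lay closest to each member were sought among 9448 genes of at least 10 CPM on average, by the distance between log2 folds against the control in S1650b and CB. The 2 folds share the control library, so the distances describe these libraries only. TJP3 had 1 gene within 0.1 log2 units, GATA3 at 0.04, followed by MPPED2 at 0.26 and MMP13 at 0.33. CLDN1 had 5 genes within that distance, the nearest being MEGF6, SCNN1A and UBA7, each at 0.06. PATJ had 9, the nearest being RASSF6, PIKFYVE and TET2, each at 0.03, and TJP1 had 11, the nearest being FAM91A1 at 0.01, LRRFIP1 at 0.05 and FBXW10B at 0.06. The other members had 58 (F11R) to 172 (CLDN7) genes within 0.1.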
